A study of Mus musculus with 14 samples.

Results

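The genes described here are the 44 protein-coding genes of the mouse that carry a collagen chain symbol (Col, a number, a, a number), out of 56748 genes in the deposited expression table. They were picked by symbol, and the choice was made with earlier results of these data known. The textbook architecture of their proteins sorted them into 11 fibrillar chains, 8 basement membrane chains, 6 beaded chains of type VI and 19 others. RNA was sequenced from ovaries of female C57BL/6J mice, labelled wild type, in 4 groups. Control ovaries were taken at day 7 (3 libraries) and at day 89 (3 libraries), and ovaries of mice given DSS (dextran sulfate sodium, a polymer used in rodents to injure the lining of the colon) were taken at day 7 (4 libraries) and at day 89 (4 libraries). The series describes day 7 as the end of the colitis model and day 89 as a time after rest, and names inflammatory bowel disease as the condition modelled. The labels used here give no age, dose or route, and nothing says that libraries stand for separate animals beyond their own numbers, so a p-value here speaks of the spread among the libraries alone.

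Collagens are built from 3 polypeptide chains wound into a triple helix, and the helix forms only where 1 residue in every 3 of a chain is glycine, the one residue small enough for its centre. Fibrillar chains (types I, III, V and XI among them) have one long unbroken helix and pack into the fibrils that give tissue its tensile strength. Type IV chains have a helix with many interruptions, join into flexible sheets and, with types XV and XVIII, belong to basement membranes. Type VI chains form beaded microfilaments between these, and the remaining chains attach to fibrils, span membranes, form short networks or anchor epithelia. In the ovary, fibrils fill the stroma and the capsule, and basement membranes surround each follicle and each capillary and are rebuilt with every cycle of follicle growth, ovulation and luteal formation.

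The architecture that defines the classes can be read from the coding sequences, and short stretches of 4 chains are shown because the classes turn on it. Each stretch is written 5′ to 3′ from the transcript annotation of GENCODE M21 (build GRCm38), and capitals mark the glycine codons that hold the repeat, 1 in every 3 codons. The first pair comes from fibrillar chains, at codons 168 to 182 of Col1a1 and 164 to 178 of Col3a1, where the long run begins.
Col1a1: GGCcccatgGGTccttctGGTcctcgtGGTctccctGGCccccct
Col3a1: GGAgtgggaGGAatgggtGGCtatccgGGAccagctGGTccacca
The second pair comes from type IV chains, at codons 157 to 178 of Col4a1 and 229 to 242 of Col4a2, where the repeat stops and starts again.
Col4a1: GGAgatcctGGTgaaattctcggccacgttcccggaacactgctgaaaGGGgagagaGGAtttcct
Col4a2: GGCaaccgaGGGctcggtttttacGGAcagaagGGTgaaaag
In Col4a1 the repeat is broken by 10 codons and in Col4a2 by 2 codons.

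Runs of at least 3 such triplets were counted in the 44 coding sequences. In 9 of the 11 fibrillar chains the longest run held 337 to 344 triplets, and the exceptions were Col24a1 with 216 and Col27a1 with 217. The 6 type IV chains had 23 to 27 separate runs, the longest of 39 to 66 triplets. Col16a1, of the other chains, lay within these ranges with 23 runs and a longest run of 52, and the basement membrane chains Col15a1 and Col18a1 lay outside them with 13 and 17 runs and a longest run of 30 each. The 6 beaded chains had a longest run of 37 to 87 triplets, which overlaps that of type IV. Among the others, Col12a1, a long chain that sits on the surface of fibrils, had only 8.12% of its codons in runs.

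**Figure D1:**
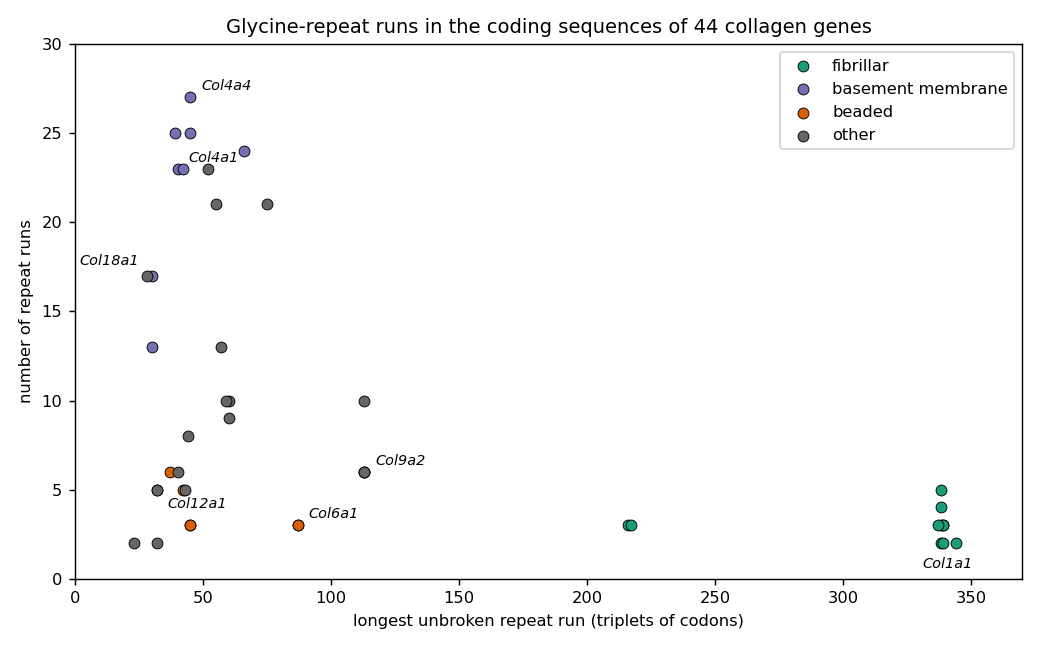
Each point is 1 of the 44 collagen genes. The horizontal axis gives the longest unbroken glycine-repeat run in triplets of codons, the vertical axis the number of runs in the coding sequence, and colours give the class. Most fibrillar chains lie far to the right with at most 5 runs, whereas the type IV chains lie at the upper left with 23 to 27 runs.

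The 6 type IV genes lie head to head in pairs, and 2 of these pairs are shown because their chains are compared below. Col4a1 (chr8:11198423-11312826, minus strand) and Col4a2 (chr8:11312805-11449287, plus strand) overlap at their annotated starts by 22 bases, written here on the plus strand with the GC box hexamer GGGCGG in capitals.
Col4a1-Col4a2, chr8:11312805-11312826: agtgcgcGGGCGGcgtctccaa
Col4a4 (chr1:82448423-82586849, minus strand) and Col4a3 (chr1:82586921-82722059, plus strand) start 71 bases apart, and the stretch between them holds none of the 3 promoter motifs searched for further on.
Col4a4-Col4a3, chr1:82586850-82586920: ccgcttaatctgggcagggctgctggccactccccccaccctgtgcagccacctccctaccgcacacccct
The third pair, Col4a6 and Col4a5 on chromosome X, has 1308 bases between its starts. All positions are those of GENCODE M21 on GRCm38, matched by gene identifier.

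Other members lie close together as well. Col3a1 (chr1:45311538-45349706, plus strand) and Col5a2 (chr1:45374321-45503282, minus strand) are neighbours, Col6a2, Col6a1 and Col18a1 lie within chr10:76595762-77166548, and Col6a6, Col6a5 and Col6a4 lie within chr9:105687809-106096783. RefSeq promoter windows on GRCm38.p6, 300 bases each and mostly upstream of the start, were matched for 35 members. Searched on both strands in any window of a gene, the GC box hexamer was found in 22 of them (62.9%, against 38.2% of 27025 genes), the CCAAT motif in 13 (37.1% against 41.1%) and the TATAA motif in 7 (20% against 28%). The 27025 genes were not limited to protein-coding genes, as the members are. Col4a1 and Col4a2, whose starts overlap, each count among the 22.

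Depth was even, at 15256018 to 18505144 recovered reads per library. In 3 libraries (control day 7 numbers 10 and 53 and DSS day 7 number 75) mitochondrially encoded genes took 9.96% to 14.2% of the reads, against 0.479% to 4.04% in the other 11. Longer genes read relatively lower in all 7 day 7 libraries (slope of -0.0859 to -0.0176 on the log2 scale for each doubling of length) and relatively higher in 6 of the 7 day 89 libraries (0.0441 to 0.0801), the exception being DSS day 89 number R38 (-0.0233). The tissue label was checked against marker genes: 6 luteal markers summed to 1950.4 FPKM or more in every library, whereas 6 retina markers, looked at because the extraction protocol speaks of retina, did not exceed 0.733 FPKM for any gene in any library. In bulk tissue, fewer cells of a type and less RNA per cell cannot be told apart.

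Collagen RNA took the largest share of reads in the day 89 control ovaries. The share of all recovered reads in the 44 genes averaged 0.395% ± 0.0569 in day 7 controls (SD, n = 3), 0.49% ± 0.0837 in DSS ovaries at day 7 (n = 4), 1.11% ± 0.159 in control ovaries at day 89 (n = 3) and 0.755% ± 0.0637 in DSS ovaries at day 89 (n = 4). The 3 day 89 controls (0.932% to 1.21%) stood above all 4 day 89 DSS libraries (0.686% to 0.839%), which in turn stood above all 7 day 7 libraries (0.334% to 0.574%). With the mitochondrial reads left out of the total the 4 means were 0.429%, 0.521%, 1.13% and 0.776%.

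By class, the fibrillar share was 0.208%, 0.235%, 0.593% and 0.377% of reads in the same order of groups, and the basement membrane share 0.0911%, 0.128%, 0.318% and 0.209%. The day 89 controls and the day 89 DSS libraries did not overlap in the basement membrane share (0.302% to 0.342% against 0.192% to 0.228%) but did in the fibrillar share (0.419% to 0.72% against 0.316% to 0.474%). The beaded share was 0.0741%, 0.1%, 0.173% and 0.141%, and that of all others 0.0215%, 0.0263%, 0.0311% and 0.0275%. Per length, fibrillar chains held 38.3% to 44.8% of the summed collagen FPKM in the group means, basement membrane chains 26.2% to 31.8% and beaded chains 20.2% to 24.9%. At day 7 the other chains held 7.96% in controls and 8.43% in DSS ovaries, against 3.24% and 4.62% at day 89.

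**Figure D2:**
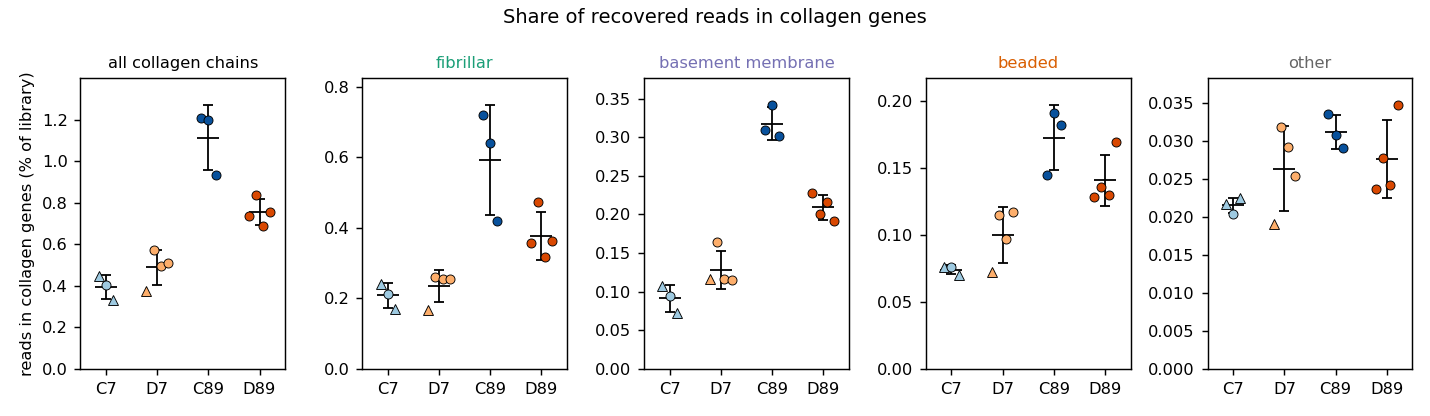
Percent of each library's recovered reads in collagen genes, for all members and by class, with 1 panel per class and its own vertical axis. C7 and C89 are control, D7 and D89 DSS ovaries at days 7 and 89, circles and triangles are libraries (triangles those with a high mitochondrial share), and bars give mean and SD. In the basement membrane panel the 3 day 89 controls (0.302% to 0.342%) lie above the day 89 DSS libraries (0.192% to 0.228%).

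The levels were steeply graded. FPKM values count reads per length of gene and per depth of library, so levels set side by side between genes rest on the length given for each gene. That length was 12426 bases for Col1a2 and 6563 for Col1a1, with coding sequences of 1372 and 1453 codons. It was 8326 bases for Col6a2 and 4380 for Col6a1, with 1034 and 1025 codons. How far the order of chains, the shares of summed FPKM and the size of ratios depend on these lengths was not tested. The depth implied by the FPKM values was 0.852 to 0.935 of the recovered reads in the 3 libraries of high mitochondrial share. In the other libraries it was 0.995 to 1.073 of the recovered reads. The mean over the 14 libraries reached 100 FPKM for 4 chains, 1 or 2 from each of the main classes: Col1a1 (121), Col3a1 (117), Col6a1 (116) and Col4a1 (115). It reached 10 FPKM for 14 of the 44. The 6 most abundant chains, those 4 with Col1a2 and Col4a2, held 64.2% ± 8.09 of the summed collagen FPKM in control ovaries at day 7 and 78.5% ± 2.49 at day 89 (SD, n = 3 each). In all, 36 chains reached 0.5 FPKM in at least 3 libraries and were tested. The 8 that did not were Col24a1, Col28a1, Col25a1, Col17a1, Col10a1, Col2a1, Col19a1 and Col9a1, with means from 0.243 down to 0.00471 FPKM. Among them Col2a1, Col9a1 and Col10a1 are the chains by which cartilage is known, and 5 of 6 other markers of cartilage and bone were likewise below the limit.

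Type I and type III chains, the bulk of stromal fibrils, were the most abundant of the fibrillar class. Col1a1, the main chain of type I collagen, read 105, 59.5 and 40.6 FPKM in the control libraries at day 7, 61.2, 93, 82.6 and 80.1 in DSS at day 7, 255, 252 and 139 in control at day 89 and 125, 182, 99 and 122 in DSS at day 89. Col3a1, the only chain of type III, read 83, 57.4 and 36.6 in control and 47.3, 72.7, 74.1 and 74.5 in DSS at day 7, and 312, 225 and 140.2 in control and 121, 175, 112 and 109 in DSS at day 89. For both, every day 89 control stood above every day 7 control, and the day 89 control and DSS libraries overlapped at control R126. Col1a2, the partner of Col1a1 in type I, was nearly flat at day 7, with 64, 63.3 and 58.9 in control and 57.7, 61.3, 60.2 and 61.3 in DSS, and read 135, 148 and 97.5 in control and 80.8, 93.9, 76.8 and 100.2 in DSS at day 89. All 7 day 89 libraries lay above all 7 day 7 libraries.

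Type V chains, which are built into type I fibrils and limit their width, followed at lower levels. Col5a1 read 13.9, 15.2 and 13.1 in control and 14, 15, 16.6 and 12.9 in DSS at day 7, 35.7, 37.2 and 29.3 in control at day 89 and 23.9, 20.9, 21.4 and 23.1 in DSS at day 89, so that at day 89 the control libraries stood wholly above the DSS libraries and both above every day 7 library. Col5a2 read 6.66, 6.06 and 4.36 in control and 5.22, 6.43, 7.77 and 6.71 in DSS at day 7, and 23, 17.8 and 11.9 in control and 10, 12.3, 8.99 and 8.44 in DSS at day 89, with 1 overlap between the day 89 groups, at control R126 and DSS R38. Col5a3 stayed below 2 FPKM, at 0.626, 0.985 and 0.327 in control and 0.643, 0.559, 0.722 and 0.293 in DSS at day 7 and 1.34, 1.97 and 1.24 in control and 1.45, 1.23, 0.773 and 0.557 in DSS at day 89. Col11a1, a minor fibrillar chain best known from cartilage, read 1.72, 3.49 and 3.19 in control and 2.81, 10.1, 5.27 and 9.38 in DSS at day 7, and 5.62, 4.01 and 7.45 in control and 5.45, 1.68, 4.68 and 5.83 in DSS at day 89. DSS library 75 was the one DSS library of day 7 within the control range of Col11a1.

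Among the basement membrane chains the ubiquitous pair Col4a1 and Col4a2, which form the common type IV molecule, led the class. Col4a1 read 65.1, 54.2 and 38.5 in control and 62.7, 91.9, 59.1 and 61.9 in DSS at day 7, 208, 241 and 199.7 in control and 149, 124.3, 138 and 121 in DSS at day 89. Col4a2 read 55.1, 36.8 and 32.4 in control and 70.9, 73.9, 49.1 and 49 in DSS at day 7 and 134, 150.0 and 134 in control and 99.8, 86.8, 94.5 and 84.4 in DSS at day 89. In both genes the libraries formed 3 tiers without overlap, with the day 89 controls highest, the day 89 DSS libraries next and all 7 day 7 libraries lowest. Col15a1 and Col18a1, whose cleaved ends are the anti-angiogenic fragments restin and endostatin, had a different order. Col15a1 read 15.9, 15.7 and 16.3 in control and 30.2, 21.5, 15.9 and 11.2 in DSS at day 7, and 36.2, 39.8 and 27.9 in control and 21.1, 19.4, 18.4 and 15.4 in DSS at day 89. Col18a1 read 13.5, 14 and 12.2 in control and 22.7, 18.1, 15.8 and 13 in DSS at day 7, and 26.8, 30.1 and 31 in control and 19.3, 20.4, 19.4 and 16.5 in DSS at day 89. For these the day 89 DSS libraries lay within the range of the day 7 DSS libraries. The day 89 controls stood above the day 89 DSS libraries and the day 7 controls, although for Col15a1 DSS library 75 of day 7 read above control R126.

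The minor type IV chains were much lower. Col4a5 read 5.2, 6.38 and 5.93 in control and 4.18, 8.46, 7.47 and 8.9 in DSS at day 7, and 14.5, 17 and 12.7 in control and 11, 9.84, 12.3 and 11.4 in DSS at day 89. Its X-linked neighbour Col4a6 read 1.69, 0.658 and 1.15 in control and 1.35, 1.96, 1.7 and 2.84 in DSS at day 7, and 2.74, 2.11 and 2.54 in control and 2.42, 2.02, 2.86 and 3.06 in DSS at day 89. Col4a4 read 3.93, 4.92 and 4.19 in control and 3.07, 3.99, 3.5 and 3.97 in DSS at day 7, and 4, 4.28 and 5.07 in control and 5.68, 3.92, 6.41 and 6.12 in DSS at day 89. Col4a3, whose chain assembles with those of Col4a4 and Col4a5, read 0.387, 0.309 and 0.331 in control and 0.641, 1.07, 1 and 0.891 in DSS at day 7, and 1.19, 0.968 and 1.43 in control and 1.27, 1.06, 1.69 and 1.67 in DSS at day 89. The 3 day 7 controls were the 3 lowest of the 14 libraries for Col4a3. Its values rest on 46 to 294 reads, and its exons share 563 bases with the antisense gene C430014B12Rik, which itself did not exceed 0.127 FPKM. No source used here says whether strand entered the counting.

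The beaded class split into its long-known and its more recently recognised chains. Col6a1 read 76.2, 36.2 and 43.5 in control and 72.1, 115, 86.6 and 107 in DSS at day 7, and 148, 204 and 189 in control and 126.1, 145, 122 and 157 in DSS at day 89. Col6a2, its neighbour on chromosome 10 and partner in the molecule, read 23.6, 17 and 17.2 in control and 22.8, 33.3, 27.3 and 33.9 in DSS at day 7, and 39.9, 51.6 and 45.4 in control and 31.9, 35.4, 29.1 and 39.9 in DSS at day 89. At day 7, control library 10 was the only control within the DSS range of both. At day 89 the Col6a2 groups were apart only before rounding, with control R123 and DSS R89 at the boundary. Col6a3, the longest chain of the common molecule, read 6.97, 10.9 and 10.8 in control and 9.49, 8.79, 8.68 and 9.48 in DSS at day 7, and 24.5, 24.1 and 21.8 in control and 18.3, 13.7, 20.2 and 26.9 in DSS at day 89, with all day 89 libraries above all day 7 libraries. Col6a4 read 20.4, 32.6 and 27.9 in control and 20.3, 20.9, 19.3 and 24.8 in DSS at day 7 and 14.3, 24.8 and 25.2 in control and 18.7, 18.9, 23.2 and 30.4 in DSS at day 89, with overlap between all groups. Col6a5 and Col6a6, which like Col6a4 can take the place of Col6a3, lay between 1.29 and 7.37 FPKM.

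Of the other chains, Col9a2 and Col16a1 were the most abundant. Col9a2, a chain of type IX, which decorates cartilage fibrils, read 17.8, 4.02 and 16.4 in control and 15.4, 46.1, 33.1 and 29.7 in DSS at day 7 and 9.82, 2.72 and 13.5 in control and 9.51, 3.4, 11.9 and 27.7 in DSS at day 89. The other type IX chains were near the floor (Col9a3 at most 1.12 FPKM, Col9a1 at most 0.0518). Col16a1, a fibril-associated chain, read 11, 12.4 and 13.9 in control and 9.12, 7.69, 10.5 and 7.38 in DSS at day 7, and 20.6, 22.7 and 12.7 in control and 11, 19.8, 10.1 and 16.1 in DSS at day 89. Col12a1, another, read 0.817, 0.835 and 0.83 in control and 0.643, 1.11, 1.31 and 1.62 in DSS at day 7, and 5.72, 3.43 and 4.36 in control and 2.77, 1.69, 3.86 and 4.52 in DSS at day 89, so that all 7 day 89 libraries lay above all 7 day 7 libraries. Col8a2, a short-chain network collagen of Descemet's membrane in the eye and of vessels, read 0.563, 1.29 and 1.13 in control and 0.843, 0.921, 0.647 and 0.784 in DSS at day 7, and 1.51, 2.06 and 1.2 in control and 2.33, 1.13, 1.69 and 2.22 in DSS at day 89.

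**Figure D3:**
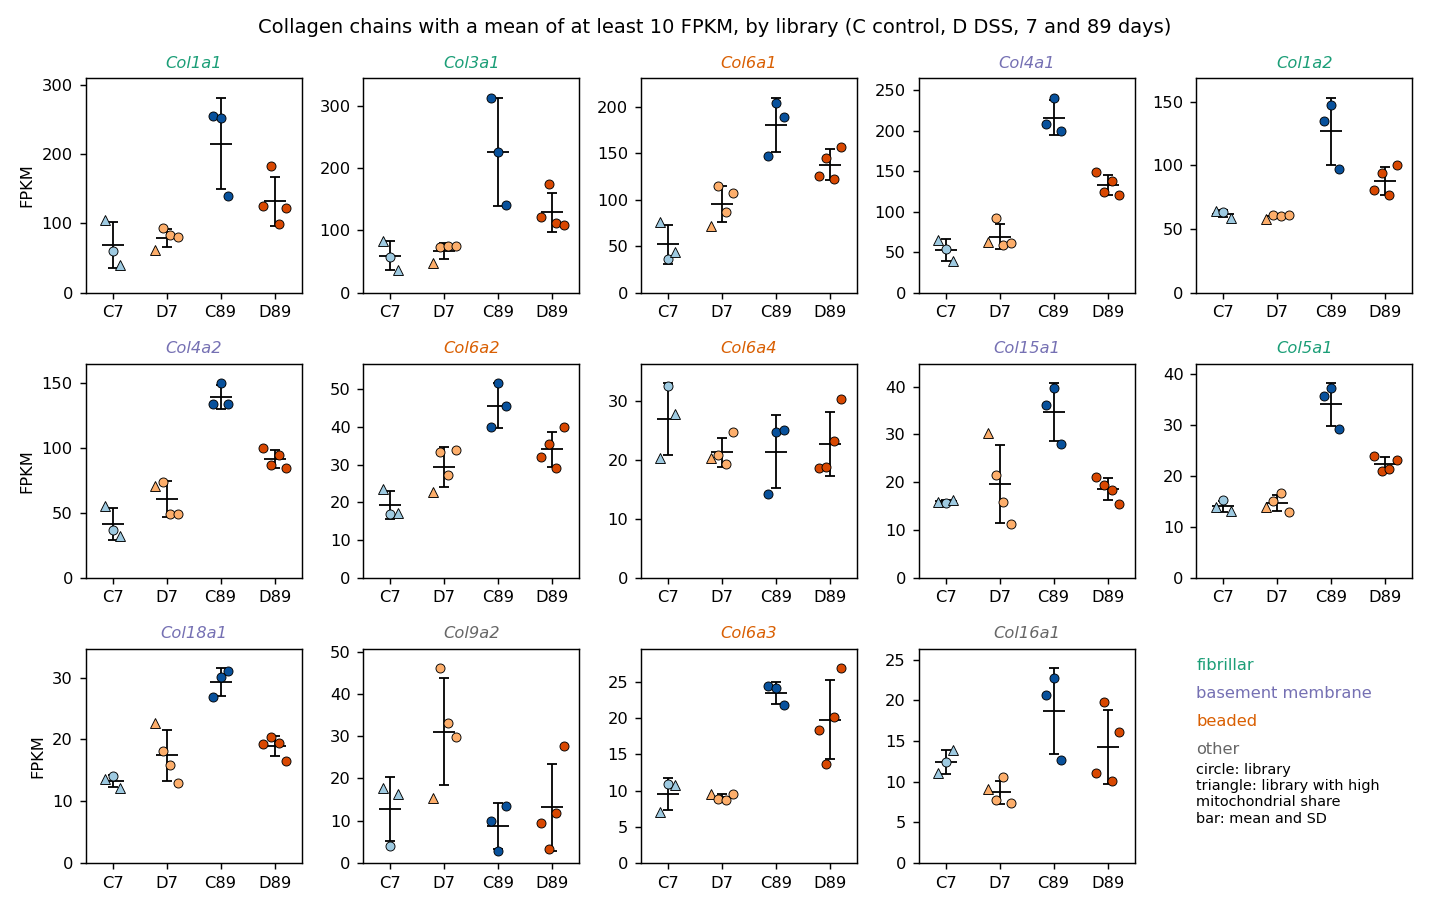
FPKM per library of the 14 chains with a mean of at least 10 FPKM, 1 panel per gene with its own vertical axis starting at 0. C7 and C89 are control, D7 and D89 DSS ovaries at days 7 and 89, circles and triangles are libraries (triangles those with a high mitochondrial share), bars give mean and SD, and the colour of the gene name gives the class. For Col4a1 and Col4a2 the day 89 controls lie highest and the day 7 libraries lowest.

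Between day 7 and day 89, control ovaries gained collagen RNA of the fibrillar, basement membrane and beaded classes. In the control comparison 17 of the 36 tested chains rose and none fell (limma on log2(FPKM + 1), Benjamini-Hochberg over 18006 genes), where 31.8% of all genes passed, 16.1% upwards and 15.7% downwards. The gain covered 6 of 9 fibrillar chains, 7 of 8 basement membrane chains and 3 of 6 beaded chains, but 1 of 13 others. The median log2 difference was 1.0 for the fibrillar, 1.07 for the basement membrane, 0.89 for the beaded and 0.02 for the other chains, against -0.0048 over all genes. In 18 members every day 89 control stood above every day 7 control (22.8% of all genes did so), and in 2, Col20a1 and Col9a3, every one stood below (22.2% of all genes).

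Col4a1 had the smallest p, rising 4.11-fold from 52.6 ± 13.4 to 216 ± 21.6 FPKM (SD, n = 3 each), with a log2 difference of 2.05 (SE 0.21, adjusted p = 0.000181). Col4a2 rose 3.36-fold from 41.4 ± 12 to 139 ± 9.28 FPKM, with a log2 difference of 1.76 (SE 0.21, adjusted p = 0.00026). Of the type IV genes only Col4a4 did not pass (0.03, SE 0.17, adjusted p = 0.916), while its head-to-head partner Col4a3 went from 0.343 ± 0.0403 to 1.19 ± 0.23 FPKM (0.7, SE 0.15, adjusted p = 0.00418). Col18a1 rose 2.21-fold to 29.3 ± 2.23 FPKM, a log2 difference of 1.09 (SE 0.17, adjusted p = 0.000851).

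Of the fibrillar chains the type I, III and V chains rose. Col5a1 went from 14.1 ± 1.04 to 34.1 ± 4.22 FPKM, a log2 difference of 1.21 (SE 0.13, adjusted p = 0.000257). Col5a2 went from 5.69 ± 1.19 to 17.6 ± 5.57 FPKM, with 1.44 (SE 0.22, adjusted p = 0.000806). The major chains Col3a1 (1.92, SE 0.33, adjusted p = 0.00121) and Col1a1 (1.7, SE 0.33, adjusted p = 0.0024) rose with a wider spread, and Col1a2 rose 2.04-fold (1.0, SE 0.16, adjusted p = 0.00097). Col27a1, a fibrillar chain with a shorter helix, and Col11a2 did not pass, at -0.57 (adjusted p = 0.38) and 0.02 (adjusted p = 0.95). Neither did Col11a1 (0.82, SE 0.41, adjusted p = 0.145), although every day 89 control stood above every day 7 control.

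All of the common type VI chains rose and none of the alternative ones passed. Col6a1 went from 52 ± 21.3 to 180.0 ± 29.4 FPKM (1.84, SE 0.25, adjusted p = 0.000485), Col6a2 from 19.3 ± 3.77 to 45.6 ± 5.84 (1.21, SE 0.19, adjusted p = 0.000768) and Col6a3 rose 2.45-fold (1.23, SE 0.21, adjusted p = 0.00114). Col6a4 had a log2 difference of -0.34, Col6a5 of 0.56 and Col6a6 of 0.23, with adjusted p-values of 0.296, 0.303 and 0.462. The one gain outside the 3 main classes was that of Col12a1, 5.45-fold from 0.827 ± 0.00881 to 4.51 ± 1.15 FPKM (1.57, SE 0.25, adjusted p = 0.000936).

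Several technical features moved with the day. The high mitochondrial share of control libraries 10 and 53 was confined to day 7; without the 3 libraries of high share 16 of these 17 chains passed, and with a term for them 15, while the share of all genes that passed went from 31.8% to 18.6% and 17.4%. With each library's trend on gene length removed, 15 of the 17 passed (28.9% of all genes) and the median over the 36 chains was 0.41 in place of 0.59. Within the libraries of lower mitochondrial share, a single day 7 control remains, and against it Col4a1 differed by 1.97 and Col3a1 by 1.88; no day 89 library has a high share. Marker sums also moved. Luteal markers summed to 2401.7 to 3438.5 FPKM in the day 7 controls and 4376.7 to 4842 at day 89 (0 of 6 passed), and stromal fibroblast markers to 107 to 155 and 133 to 291 (1 of 6 rose). Endothelial markers summed to 75.2 to 111 and 109 to 118 (2 of 7 rose and 1 fell), and ovarian surface markers to 58.6 to 67.2 and 21 to 28.7 (5 of 7 fell). Of the macrophage markers 3 of 6 rose, and of the pericyte and smooth muscle markers 1 of 7 rose and 2 fell. Markers that fell were 2 of 7 for oocytes, 2 of 3 for oviduct, 1 of 7 for granulosa and 1 of 5 for erythrocytes. Their part in the result was not tested.

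In DSS ovaries the collagen genes that passed between day 7 and day 89 also rose, and fewer passed than in controls. Of the 36 chains 10 rose and none fell, where 21.4% of all genes passed and 10.7% went up. They were 3 fibrillar chains (Col1a2, Col3a1, Col5a1), 4 of type IV (Col4a1, Col4a2, Col4a4, Col4a5), Col6a3, Col12a1 and Col8a2. The class medians were 0.53, 0.41, 0.15 and -0.05 in the order fibrillar, basement membrane, beaded, other. In 12 members every day 89 DSS library stood above every day 7 DSS library (12.2% of all genes) and in none below (12.7%).

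Col6a3 had the smallest p, rising 2.17-fold from 9.11 ± 0.436 to 19.8 ± 5.5 FPKM (SD, n = 4 each) with a log2 difference of 1.0 (SE 0.18, adjusted p = 0.00335). Col4a1 rose 1.93-fold from 68.9 ± 15.4 to 133 ± 12.7 FPKM, a log2 difference of 0.96 (SE 0.18, adjusted p = 0.00407). Col5a1 rose 1.52-fold (0.58, SE 0.12, adjusted p = 0.00533) and Col12a1 2.74-fold (0.92, SE 0.22, adjusted p = 0.0115). These 4 also rose in control ovaries. Exons of Col5a1 share 113 bases with Gm13372, which read at most 0.076 FPKM at day 7 and 0.328 to 1.42 at day 89, and its part in the Col5a1 values was not tested.

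The calls of the next 4 chains depended on the processing. Col1a2 rose 1.46-fold (0.53, SE 0.14, adjusted p = 0.0181), Col4a2 1.51-fold (0.61, SE 0.18, adjusted p = 0.0306) and Col4a4 1.52-fold (0.48, SE 0.15, adjusted p = 0.0317), although for Col4a4 the groups overlapped. Col8a2 went from 0.799 ± 0.116 to 1.84 ± 0.552 FPKM (0.64, SE 0.17, adjusted p = 0.0212). With the trend on gene length removed 5 chains passed, Col4a1, Col5a1, Col6a3, Col12a1 and Col8a2, and with every gene above 0 tested also 5, with Col1a2 in place of Col8a2. Of all genes 19% and 7.9% passed in these settings, against 21.4%. Leaving out DSS day 7 library 81 or DSS day 89 library R29 likewise left Col4a1, Col5a1, Col6a3, Col12a1 and Col1a2, where 14% and 11.5% of all genes passed.

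Several chains that rose in controls did not pass in DSS ovaries. Col15a1 stood at 19.7 ± 8.16 and 18.6 ± 2.42 FPKM (0, SE 0.23, adjusted p = 0.99), Col18a1 at 17.4 ± 4.1 and 18.9 ± 1.69 (0.14, SE 0.15, adjusted p = 0.519), and Col6a2 at 29.3 ± 5.28 and 34.1 ± 4.65 (0.22, SE 0.16, adjusted p = 0.342). Of 19 chains called in either day comparison 8 were called in both, 9 in controls and 2 in DSS ovaries; whether the changes differ between controls and DSS is the subject of the difference test given further on. In DSS ovaries 4 of 6 luteal markers rose, from a sum of 1950.4 to 3002.6 FPKM at day 7 to 3400.5 to 5813.1 at day 89, and all 7 oocyte markers fell (249 to 390 down to 48.8 to 153). Of the stromal fibroblast markers 1 of 6 rose, Pdgfra (summed 86.8 to 169 and 168 to 246 FPKM), of the endothelial markers 2 of 7, Cdh5 and Kdr (63.1 to 99.1 and 90.7 to 99.2), and of the pericyte and smooth muscle markers 1 of 7, Rgs5 (331 to 387 and 355 to 498). Ovarian surface markers summed to 21 to 58.9 and 14 to 34 (5 of 7 fell). Further markers that rose were 2 of 6 for macrophages, 1 of 7 for granulosa, 1 of 3 for adipocytes and 1 of 1 for cartilage and bone. Further markers that fell were 2 of 3 for oviduct, 1 of 5 for erythrocytes and 1 of 2 for skin. The part of these markers in the result was not tested.

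**Figure D4:**
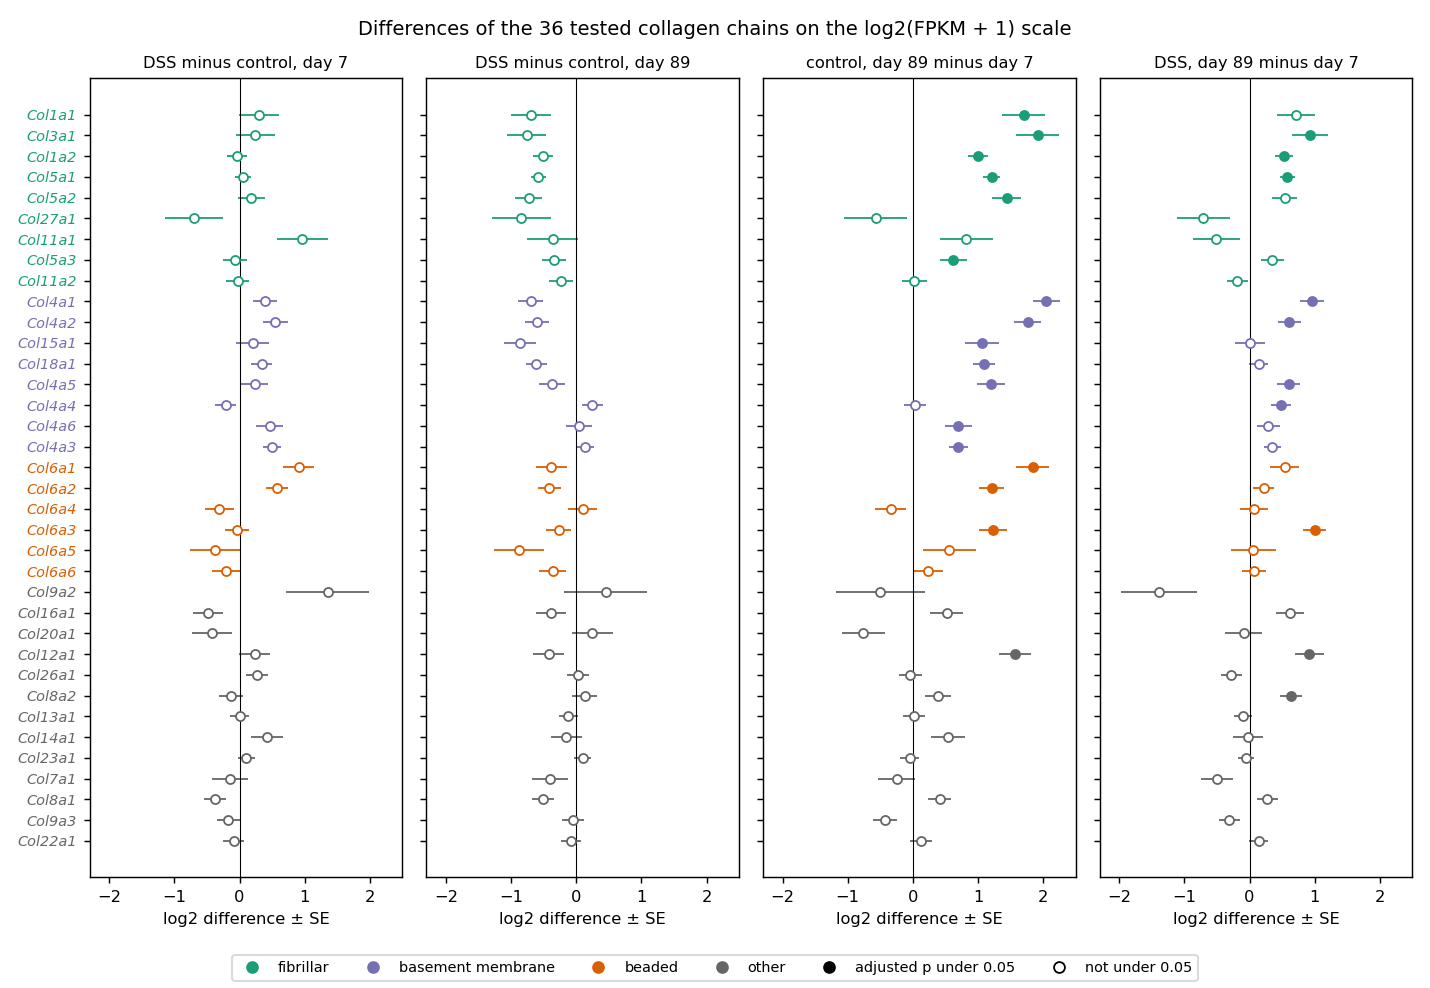
Log2 differences with standard errors for the 36 tested chains, 1 panel per comparison and 1 row per gene. Colours give the class and filled points an adjusted p under 0.05. Filled points appear in both day comparisons (17 in controls and 10 in DSS ovaries, all to the right of 0) and in neither comparison of DSS with control.

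At day 7 no collagen gene passed between DSS and control ovaries, and 20 of the tested chains lay above 0 and 16 below. Of the 36 chains 0 were called by limma, where 6 of 18006 genes were (0.0333%, 0.00555% higher and 0.0278% lower); voom on the recovered reads also called 0. An unadjusted p under 0.05 was found for 7 chains and for 16% of all genes. Basement membrane chains had a median log2 difference of 0.37 with 7 of 8 above 0, fibrillar chains of 0.05, beaded of -0.12 and other chains of -0.09. DSS and control libraries did not overlap for Col4a3 and Col26a1, which were higher (6.24% of all genes), and for Col16a1 and Col8a1, which were lower (5.87%).

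Col6a1 had the smallest p, at 52 ± 21.3 FPKM in control and 95.1 ± 19.4 in DSS ovaries (SD, n = 3 and 4), 1.83-fold, with a log2 difference of 0.91 (SE 0.24, adjusted p = 0.12). Col6a2 differed by 0.58 (SE 0.17, adjusted p = 0.15) and Col4a2 by 0.55 (SE 0.19, adjusted p = 0.204). Col4a3 read 2.63-fold higher in DSS ovaries, 0.901 ± 0.189 against 0.343 ± 0.0403 FPKM (0.5, SE 0.14, adjusted p = 0.14), and Col11a1 2.46-fold (0.96, SE 0.39, adjusted p = 0.257). None of these differences passed over all genes.

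The calls in this comparison depended on single libraries, and those of high mitochondrial share are 2 of 3 controls and 1 of 4 DSS libraries. Without DSS library 75 the table as a whole had 1220 calls (6.88% of the genes) and 4 collagen chains passed: Col6a1 (1.03, adjusted p = 0.027), Col6a2 (0.69, adjusted p = 0.0307), Col4a3 (0.57, adjusted p = 0.0345) and Col11a1 (1.27, adjusted p = 0.0491). Without all 3 such libraries 1 control remained and Col6a1 and Col6a2 passed (adjusted p = 0.0216 and 0.0482, with 5.03% of genes called). Without control library 10, Col6a1 alone passed (1.22, adjusted p = 0.0423, with 0.225% of genes called). Within the libraries of lower share (3 DSS, 1 control) Col6a1 differed by 1.47 and within those of high share (1 DSS, 2 controls) by 0.32; for Col4a3 the values were 0.6 and 0.27, for Col6a2 0.84 and 0.17, for Col4a2 0.6 and 0.73, and for Col11a1 1.0 and 0.17.

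Marker lists moved as well between the day 7 groups. Summed macrophage markers were 111 to 161 FPKM in control and 235 to 321 in DSS libraries, erythrocyte markers 49.9 to 309 and 410 to 725, and oocyte markers 119 to 210 and 249 to 390, in each case without overlap, although no marker passed over all genes. Stromal fibroblast markers overlapped (107 to 155 and 86.8 to 169). Endothelial markers overlapped too (75.2 to 111 and 63.1 to 99.1), with a log2 difference below 0 for 6 of 7. Their part in the result was not tested.

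At day 89 most collagen chains read lower in DSS than in control ovaries, but none passed over all genes. limma called 0 of 36 chains, where 1 of 18006 genes was called (0.00555%), and voom called 0. An unadjusted p under 0.05 was found for 12 chains and for 4.58% of all genes. All 9 fibrillar chains lay below 0, with a median of -0.58, as did 5 of 8 basement membrane chains (median -0.49) and 5 of 6 beaded chains (median -0.37); the other chains had a median of -0.08 and all 36 one of -0.37, against 0.0043 over all genes. In 7 chains every DSS library stood below every control, Col5a1, Col4a1, Col4a2, Col4a5, Col15a1, Col18a1 and Col6a2 (4.25% of all genes), and in none above (4.04%).

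Col5a1 had the smallest p, at 34.1 ± 4.22 FPKM in control and 22.3 ± 1.4 in DSS ovaries (SD, n = 3 and 4), 1.53-fold lower, with a log2 difference of -0.58 (SE 0.12, adjusted p = 0.924). Col4a1 was 1.63-fold lower, at 133 ± 12.7 against 216 ± 21.6 FPKM (-0.7, SE 0.19, adjusted p = 0.924). Col18a1 was 1.55-fold lower (-0.61, SE 0.16, adjusted p = 0.924) and Col15a1 1.86-fold (-0.86, SE 0.25, adjusted p = 0.924). Col5a2 was 1.77-fold lower (-0.73, SE 0.21, adjusted p = 0.924), with 1 DSS library inside the control range. None of these differences passed the adjustment over 18006 genes.

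The major fibrillar chains differed by as much with more spread: Col3a1 was 1.75-fold and Col1a1 1.63-fold lower in DSS, with log2 differences of -0.76 (SE 0.3, adjusted p = 0.924) and -0.69 (SE 0.31, adjusted p = 0.924). The exceptions among the basement membrane chains were Col4a3, Col4a4 and Col4a6, at 0.14, 0.25 and 0.05, with adjusted p-values of 0.94, 0.924 and 0.992. Without control library R124 the median over the 36 chains was -0.25 in place of -0.37. The slope on gene length was 0.0675 to 0.0801 in the day 89 controls and -0.0233 to 0.0611 in the day 89 DSS libraries. With that trend removed the medians were -0.52 for fibrillar, -0.44 for basement membrane, -0.33 for beaded and -0.03 for other chains. Summed endothelial markers were lower in DSS without overlap (109 to 118 FPKM in control and 90.7 to 99.2 in DSS, 0 of 7 passed). At day 7 as well 6 of 7 of them read lower in DSS, with sums that overlapped (75.2 to 111 FPKM in control and 63.1 to 99.1 in DSS). Stromal fibroblast markers overlapped at day 89 (133 to 291 and 168 to 246). The part of these markers in the result was not tested.

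The difference between the DSS effects at day 89 and at day 7 was tested as an interaction, which uses the same 14 libraries as the comparisons above. It was below 0 for 28 of the 36 chains, with a median of -0.38 over all 36 and of -0.64, -0.77, -0.37 and -0.12 for fibrillar, basement membrane, beaded and other chains. limma called 0 chains, as it called 0 of 18006 genes (0%), and voom called 0; an unadjusted p under 0.05 was found for 12 chains and for 8.45% of all genes. This interaction is also the difference between the day changes of DSS and control ovaries, so no single chain's day change differed past the threshold between DSS and control ovaries.

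The smallest p-values belonged to basement membrane and beaded chains. Col18a1 had -0.95 (SE 0.22, adjusted p = 0.419), Col4a2 -1.16 (SE 0.28, adjusted p = 0.419) and Col4a1 -1.09 (SE 0.27, adjusted p = 0.422). Col6a2 had -0.99 (SE 0.25, adjusted p = 0.419) and Col6a1 -1.29 (SE 0.34, adjusted p = 0.422). For these 5 genes DSS ovaries read higher than controls at day 7 and lower at day 89, with neither difference called.

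Ratios between chains within a library were compared by exact two-sided permutation tests, 12 ratios in 4 comparisons. Most pair chains of 1 collagen type, and 3 set chains of different types against each other (Col3a1 and Col1a1, Col1a1 and Col4a1, Col15a1 and Col18a1). None of the 48 passed Benjamini-Hochberg adjustment (smallest adjusted p = 0.229). The smallest p these designs allow is 0.0286 for 3 against 4 and for 4 against 4 libraries and 0.1 for 3 against 3. The 3 against 3 tests could therefore not pass, and the others could only if many of them reached their smallest p. The lack of calls thus does not show that the ratios were unchanged. The 2 day comparisons and the 2 comparisons of DSS with control share their groups, so ratios are given side by side.

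The ratio of Col4a3 to Col4a4, the pair that starts 71 bases apart, set the day 7 controls apart from the rest. It was 0.0985, 0.0629 and 0.0791 in the day 7 controls and lay between 0.209 and 0.297 in all 11 other libraries. The means were 0.0802 ± 0.0178 in day 7 controls and 0.247 ± 0.0366 in day 7 DSS ovaries (exact permutation p = 0.0286, adjusted p = 0.229, n = 3 and 4), and 0.268 ± 0.0373 and 0.258 ± 0.0227 at day 89 (exact p = 0.657). In the 3 libraries of high mitochondrial share the ratio was 0.209 in DSS library 75 and 0.0985 and 0.0791 in control libraries 10 and 53. These values rest on 86, 58 and 46 reads of Col4a3, and the part of the mitochondrial share in the ratio was not tested.

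The ratio of Col4a1 to Col4a2, the pair whose starts overlap, varied less. At day 7 it averaged 1.28 ± 0.167 in controls and 1.15 ± 0.179 in DSS ovaries, and it averaged 1.55 ± 0.0581 and 1.45 ± 0.027 at day 89. At day 89 every control (1.49 to 1.61) stood above every DSS library (1.43 to 1.49) before rounding, by a margin too small to show here (exact permutation p = 0.0286, adjusted p = 0.229). Between the days the ratio did not overlap either, with a log2 difference of 0.35 in DSS ovaries (exact permutation p = 0.0286, adjusted p = 0.229) and of 0.28 in controls (exact permutation p = 0.1, adjusted p = 0.343), against -0.09 between DSS and control at day 89. The ratio of Col4a5 to Col4a6 at day 89 was 6.12 ± 1.71 in control and 4.37 ± 0.482 in DSS ovaries (exact permutation p = 0.0286, adjusted p = 0.229).

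Outside type IV, the ratio of Col6a1 to Col6a2 was 2.63 ± 0.556 and 3.24 ± 0.145 in control and DSS ovaries at day 7, and 3.94 ± 0.238 and 4.05 ± 0.12 at day 89. Within DSS ovaries the days did not overlap (exact permutation p = 0.0286, adjusted p = 0.229, n = 4 each). Col8a1 relative to Col8a2 was 0.684 ± 0.191 in day 7 controls and 0.333 ± 0.142 in day 7 DSS ovaries (exact permutation p = 0.0571) and 0.814 ± 0.475 and 0.289 ± 0.0945 at day 89 (exact permutation p = 0.0286, adjusted p = 0.229). Every DSS library was below every control at both days for this ratio, which rests on few reads, from 18 for Col8a1 and from 38 for Col8a2. The ratio of Col1a1 to Col1a2, the chains of type I collagen, averaged 1.09 ± 0.494 in day 7 controls, 1.31 ± 0.191 in day 7 DSS, 1.67 ± 0.23 in day 89 controls and 1.5 ± 0.329 in day 89 DSS ovaries, with overlap in every comparison.

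**Figure D5:**
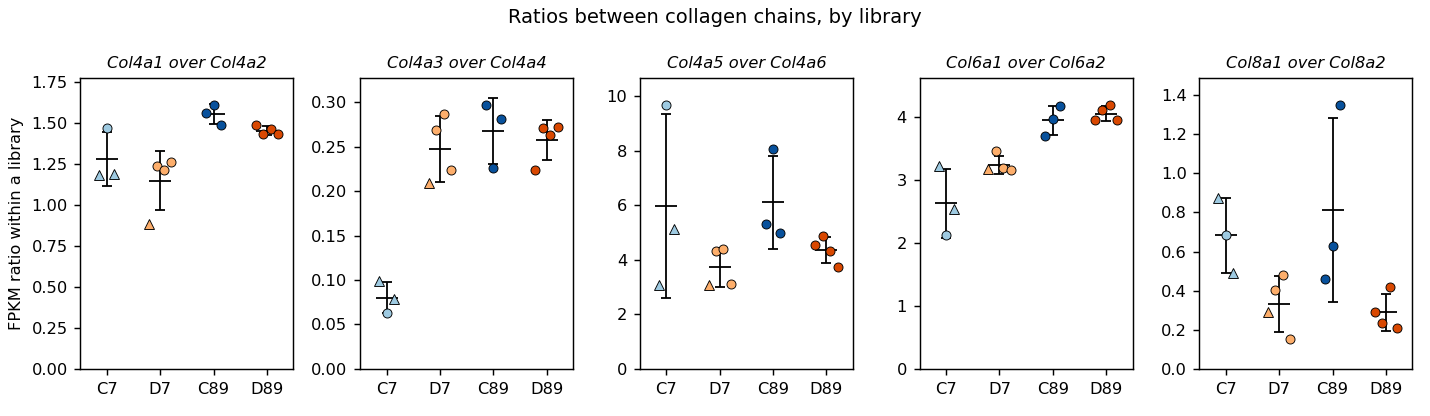
Ratios of FPKM between 5 pairs of chains, 1 panel per pair with its own vertical axis starting at 0. C7 and C89 are control, D7 and D89 DSS ovaries at days 7 and 89, circles and triangles are libraries (triangles those with a high mitochondrial share), and bars give mean and SD. For Col4a3 over Col4a4 the day 7 controls (0.0629 to 0.0985) lie below all 11 other libraries (0.209 to 0.297).

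The genes that modify, secrete, crosslink, bind and remove collagen were followed in 7 lists of 72 genes, of which 65 were tested. In control ovaries 26 rose and 1 fell between day 7 and day 89, where 16.1% of all genes rose and 15.7% fell. In DSS ovaries 9 rose and 3 fell, where 10.7% of all genes went each way, so that the share that rose was near that of all genes. None passed between DSS and control at either day or in the interaction. By role, 9 of 20 folding and modification genes rose in controls, 5 of 9 receptors rose and 1 fell, and 4 of 10 fibril partners, 3 of 7 genes of collagen breakdown, 2 of 6 crosslinking enzymes, 2 of 6 genes of propeptide removal and 1 of 7 inducers rose.

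In control ovaries the 6 smallest p-values belonged to genes that rose. Timp3, an inhibitor of metalloproteinases bound to matrix, rose from 2.54 ± 1.44 to 21 ± 0.535 FPKM (log2 difference 2.71, adjusted p = 0.000257), and Mmp2, a gelatinase that cleaves type IV collagen, from 3.8 ± 1.06 to 42.5 ± 18 (3.12, adjusted p = 0.000382). Fn1, the fibronectin on which fibrils are laid down, rose by 1.72 on the log2 scale (adjusted p = 0.000309), Loxl2, a crosslinking oxidase of type IV collagen, by 1.62 (adjusted p = 0.000495), Fbn1, the fibrillin of microfibrils, by 1.95 (adjusted p = 0.000618) and P3h2, a prolyl 3-hydroxylase of type IV collagen, by 2.09 (adjusted p = 0.00103).

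In DSS ovaries Timp3 rose by 1.76 on the log2 scale (adjusted p = 0.00182), Mmp2 by 1.76 (adjusted p = 0.00548), the collagen receptor Ddr2 by 1.13 (adjusted p = 0.00595), Fbn1 by 1.15 (adjusted p = 0.00784) and Mia2, which helps bulky cargo such as collagen leave the endoplasmic reticulum, by 0.76 (adjusted p = 0.00814). P4ha3, a prolyl 4-hydroxylase subunit, went the other way, from 2.23 ± 0.444 to 0.641 ± 0.167 FPKM (log2 difference -0.97, adjusted p = 0.0045). At day 7 P4ha3 was higher in DSS than in control ovaries by 0.82 on the log2 scale (adjusted p = 0.106), Ppib, a prolyl isomerase of the collagen-folding complex, by 1.01 (adjusted p = 0.133) and Fn1 by 0.7 (adjusted p = 0.14). At day 89 Loxl2 was lower in DSS by a log2 difference of -0.94, at 18 ± 1.65 against 35.7 ± 4.72 FPKM, Lox, the founding enzyme of that family, by -0.59 and Itga1, the integrin subunit that binds type IV collagen, by -0.37 (adjusted p = 0.924 for each).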

How the data were processed

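RNA was measured in 14 ovary libraries made with a TruSeq kit. The authors deposited FPKM values per gene (reads per length of gene and depth of library); the submitters' processing notes name the aligner HISAT2 2.0.5 and the build GRCm38, and no source used here gives the counter, annotation or strand setting. FPKM times gene length gave whole reads for 100% of values up to 300 reads (within 0.01 of a read), and from these depth was recovered.

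Differences were fitted in limma 3.58.1 (R 4.3.3, with its trend option) on log2(FPKM + 1), which understates the change of low genes, over genes with at least 0.5 FPKM in at least 3 libraries, all 4 groups sharing 1 estimate of the spread, with Benjamini-Hochberg adjustment over all genes and a threshold of 0.05. The fit was tested on simulated data. Ratios were tested by exact permutation. Alternatives were another pseudocount, no filter, another scaling, voom with TMM scaling on the recovered reads, a length correction, the mitochondrial share and leaving libraries out. Where more than 8 members were called the 8 with the smallest p are given with statistics, and where none was called the 5 with the smallest p; others named are described by class. For partner genes these numbers are 6 and 3. The members and lists were chosen with earlier results of these data known. Coding sequences and positions came from GENCODE M21, promoters from RefSeq.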

Additional observations from a re-analysis of the deposited data

Results flagged for a closer look

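In 4 of 72 groups of 4 libraries that were checked, 1 library stood far from the other 3, and chance alone gives about 1 in 20. Col3a1 read 47.3 FPKM in DSS library 75 of day 7, below the 72.7 to 74.5 of the other DSS libraries of that day. Col27a1, a fibrillar chain with a shorter helix, read 12.4 FPKM in the same library, above 5.04 to 5.74 in the others. Library 75 is the DSS library with a high mitochondrial share, whose part in these values was not tested. Col4a1 read 91.9 FPKM in DSS library 80 of day 7, against 59.1 to 62.7 in the others. Col7a1, the chain of the fibrils that anchor epithelia, read 0.855 FPKM in DSS library R38 of day 89, against 0.335 to 0.393.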

How the results depend on the processing

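No paired analysis was possible because no replicate number recurs between the groups. All 61 single results followed kept their direction in every alternative run, and 46 also kept their side of the threshold. The alternatives refit all or part of the same libraries, so a kept direction is no independent support. Chains called between DSS and control at day 7 numbered 0, became 2 without the libraries of high mitochondrial share, and ranged from 0 to 4 with 1 library left out. The 4 came without DSS library 75 of day 7 (6.88% of all genes called). At day 89 and in the interaction the count stayed at 0 throughout. In control ovaries the 17 calls (31.8% of all genes called) ranged from 15 to 17 with 1 library left out (20.9% to 36.2%). Without control 51 of day 7, 16 chains rose and Col20a1 was called lower (33.8% of all genes called). Without control R123 of day 89, Col6a5 and Col8a1 took the place of Col4a6 and Col5a3 (22.9%). In DSS ovaries the 10 calls (21.4% of all genes called) became 5 with no filter on low values (7.9%). They became 5 with the length trend removed (19%) and ranged from 5 to 12 with 1 library left out (11.5% to 27.7%). The 12 came without control R126 of day 89 (18.7% of all genes called). Without DSS R89 of day 89, 6 chains rose and Col9a2 was called lower (15% of all genes called). The control median of 0.59 was 1.01 with a pseudocount of 0.1, 1.03 with voom and 0.41 with the length trend removed, and ranged from 0.49 to 0.69 with 1 library left out. The DSS median of 0.24 was 0.39, 0.43 and 0.12 under the same settings and ranged from 0.22 to 0.29. The interaction median of -0.38 was -0.56, -0.57 and -0.3 and ranged from -0.43 to -0.3. The day 7 median of 0.07 ranged from 0.02 to 0.15 and the day 89 median of -0.37 from -0.4 to -0.25. With each library scaled to its own recovered reads, the day 7 median over all genes was 0.064 in place of 0.004. The causes of these shifts were not tested. The lowest reads behind a named ratio were 18 for Col8a1 and 38 for Col8a2; the smallest difference that these groups could show was not measured.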
